A study of Mus musculus with 6 samples.

Results

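The Wnt genes described here are the secreted Wnt ligands, their Frizzled receptors, the R-spondins with their LGR receptors, the secreted and intracellular inhibitors of the pathway, and the nuclear proteins through which it acts. They were taken from the count table by name: every protein-coding gene whose symbol starts with Wnt, Fzd, Sfrp, Dkk or Rspo and a digit, together with Lgr4, Lgr5, Lgr6, Frzb, Wif1, Axin2, Znrf3, Rnf43, Lef1, Tcf7, Tcf7l1, Tcf7l2, Nkd1, Nkd2, Notum and Ctnnb1. The rule found 51 of the 28262 genes listed, of which 17451 were protein-coding. The rule uses gene names and no measured value, although it was written with earlier results of these data known. Dkk4, Notum, Rspo2, Wnt3, Wnt7a and Wnt9b were not analysed here.

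RNA-seq was performed on primary Sertoli cells, the somatic cells of the seminiferous tubule that nurse the germ cells, isolated from testes of untreated C57BL/6 mice at 20 days of age. The control group (Pa1F/F, genotype PA1flox/flox in the labels) carried the floxed allele, and the knockout group (Amh-pa1-/-, genotype PA1-/- in the labels) had the gene deleted by a Cre recombinase under the Amh promoter, which is active in Sertoli cells. Each group had 3 libraries, with 13203757 to 16231443 counts per library. The cells were cultured and washed free of loose germ cells but not sorted, so other testis cells could remain, and while the study's methods call the samples biological replicates, neither they nor the labels say which animals each came from, so p-values measure only the spread between these samples. The genotypes rest on the labels, as reads of the targeted gene were not analysed here.

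Wnt ligands are lipid-modified glycoproteins that bind Frizzled receptors and the co-receptors LRP5 and LRP6 and keep β-catenin from being degraded, so that it enters the nucleus and works with TCF/LEF proteins at target genes. Other ligands, of which WNT5A and WNT11 are the best known, also signal without β-catenin through ROR and RYK receptors and the planar cell polarity proteins. In the gonad, Wnt4 and Rspo1 are known as genes of the ovarian programme that is held down in Sertoli cells, and forced activity of β-catenin in Sertoli cells is known to disturb the testis.

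Of the 51 Wnt genes, 36 had enough counts to be tested and 15 did not (highest count in any library 16, for Lef1). In edgeR's quasi-likelihood test, with p-values adjusted after Benjamini and Hochberg over 14919 genes, 8 of the 36 passed both thresholds (adjusted p under 0.05 and a log2 fold change of 1 or more in size), which is 22.2% against 12.0% of all genes tested. Of these, 7 were lower in Amh-pa1-/- cells (Fzd1, Fzd9, Sfrp1, Sfrp2, Tcf7, Wnt5b and Wnt10b), or 19.4% against 6.56% of all genes, and 1 was higher (Wnt4), or 2.78% against 5.44%. The count of lower genes was 3 without control replicate 2, without knockout replicate 1 or with the closest pair of libraries in each group summed, and 4 without control replicate 1 or knockout replicate 2. Without the fold threshold, 16 of 36 (44.4%) had an adjusted p under 0.05, against 35.3% of all genes. The 11 lower genes (30.6%, against 17.1%) added Wnt5a, Wnt11, Fzd7 and Sfrp4, and the 5 higher genes (13.9%, against 18.2%) were Wnt4, Fzd3, Fzd6, Lgr4 and Axin2. The 11 became 7 without control replicate 1, control replicate 2 or knockout replicate 2, 6 without knockout replicate 1 and 5 with the closest libraries summed, and the 5 became 3 without any 1 control library and 2 with the closest libraries summed. The other 20 tested genes did not pass. The 3 libraries of one group lay wholly above those of the other for 18 of 36 Wnt genes, a share near the 52.4% of all genes, so that a lack of overlap by itself set no Wnt gene apart. The median log2 fold change was -0.11 over the 36 Wnt genes and 0.00197 over all genes tested. With 3 libraries against 3, the smallest p of an exact two-sided permutation test of a single gene is 0.1, so the tests below rest on the fit across genes.

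**Figure D1:**
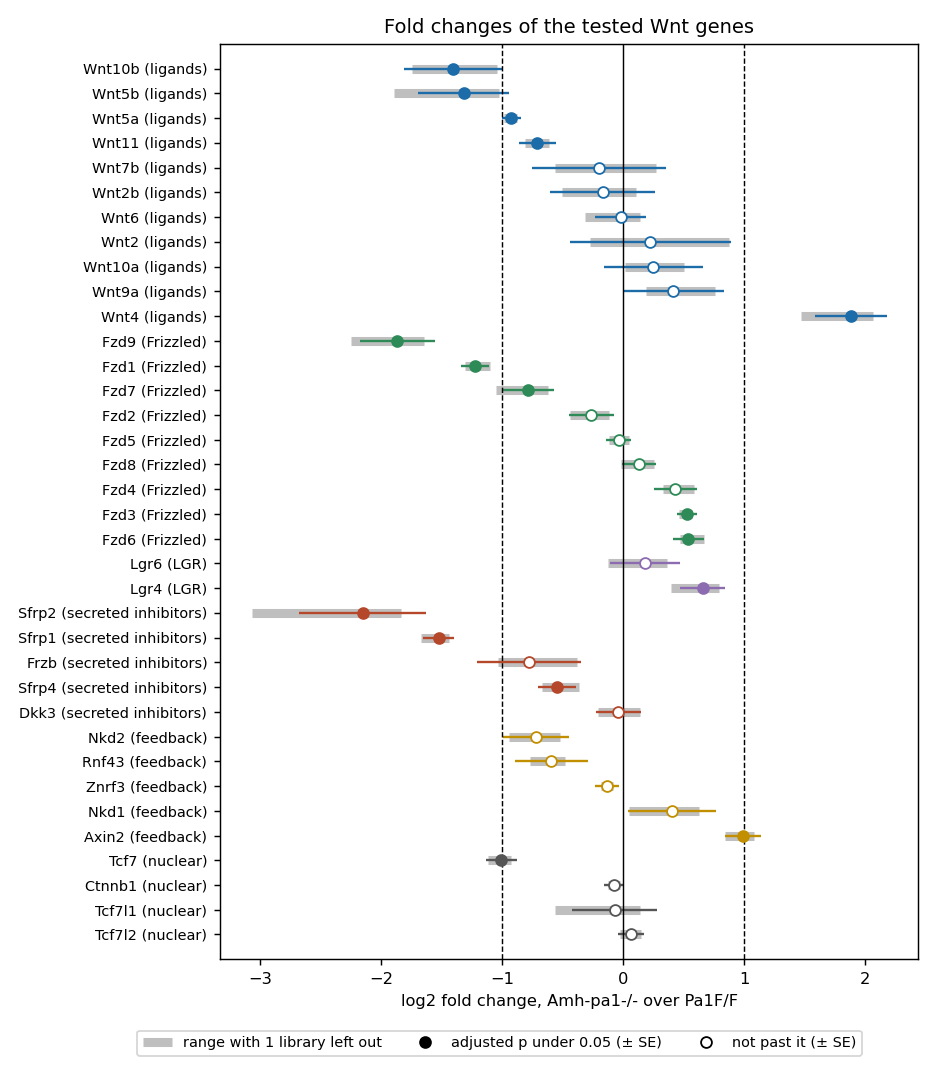
Log2 fold change of Amh-pa1-/- over Pa1F/F for the 36 tested Wnt genes, grouped by role, with the standard error as a line and the range over fits with 1 library left out as a grey bar (filled points have an adjusted p under 0.05, and dashed lines mark a log2 fold change of 1 in either direction). Wnt4 at 1.88 stands to the right of the dashed line, while Sfrp2 at -2.15 lies farthest to the left and has the widest grey bar.

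In these data fewer cells of a type and less RNA per cell cannot be told apart. In what follows, a normalized count is a library's count divided by its TMM-adjusted size and scaled to the mean library, and levels of different genes were compared only as CPM (a library's counts scaled to a fixed total) per kilobase of exon. One library, Amh-pa1-/- replicate 3, departed from the other 2 of its group by more than 0.5 on the log2 scale in 16 of 36 Wnt genes (44.4%), against 24.5% of all genes tested, and for each of these the value without it is given beside the gene.

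Promoters of the Wnt genes that moved and whose upstream window lies wholly outside the gene as counted are printed here, except that of Tcf7, which reads into coding sequence of a longer form of that gene, because the study examined JUN, a part of the AP-1 factor, and because TCF/LEF sites are where β-catenin acts. Each is the 250 bases before a RefSeq start site (GRCm38.p6), written 5′ to 3′ on the gene's strand, with any match to the AP-1 site TGACTCA, the cAMP response element TGACGTCA or the TCF/LEF sites CTTTGAT and CTTTGTT, on either strand, in capitals. They are Wnt5b (chr6:119544348-119544597, minus strand), Wnt11 (chr7:98834862-98835111, plus strand), Sfrp2 (chr3:83766071-83766320, plus strand), Fzd1 (chr5:4758217-4758466, minus strand), Axin2 (chr11:108920099-108920348, plus strand), Wnt10b (chr15:98778151-98778400, minus strand), Fzd7 (chr1:59481897-59482146, plus strand) and Lgr4 (chr2:109917397-109917646, plus strand).
Wnt5b: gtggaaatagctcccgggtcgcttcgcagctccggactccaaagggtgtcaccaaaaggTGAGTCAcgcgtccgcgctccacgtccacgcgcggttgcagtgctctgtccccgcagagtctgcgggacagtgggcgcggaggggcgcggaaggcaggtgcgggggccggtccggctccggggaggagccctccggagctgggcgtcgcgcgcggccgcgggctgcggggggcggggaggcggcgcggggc
Wnt11: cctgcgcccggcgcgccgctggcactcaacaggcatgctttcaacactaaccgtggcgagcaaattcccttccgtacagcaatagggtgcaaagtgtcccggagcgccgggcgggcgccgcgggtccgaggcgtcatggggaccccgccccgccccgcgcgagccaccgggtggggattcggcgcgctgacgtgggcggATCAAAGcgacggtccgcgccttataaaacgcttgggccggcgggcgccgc
Sfrp2: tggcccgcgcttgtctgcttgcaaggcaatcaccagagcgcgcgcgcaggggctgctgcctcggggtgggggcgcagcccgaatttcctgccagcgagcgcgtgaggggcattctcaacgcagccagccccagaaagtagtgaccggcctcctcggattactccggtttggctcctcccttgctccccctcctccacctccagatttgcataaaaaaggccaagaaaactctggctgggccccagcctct
Fzd1: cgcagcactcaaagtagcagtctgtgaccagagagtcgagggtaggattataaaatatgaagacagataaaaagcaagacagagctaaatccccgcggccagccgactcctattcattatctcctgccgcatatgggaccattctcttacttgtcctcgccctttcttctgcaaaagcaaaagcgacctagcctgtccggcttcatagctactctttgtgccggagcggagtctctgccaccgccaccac
Axin2: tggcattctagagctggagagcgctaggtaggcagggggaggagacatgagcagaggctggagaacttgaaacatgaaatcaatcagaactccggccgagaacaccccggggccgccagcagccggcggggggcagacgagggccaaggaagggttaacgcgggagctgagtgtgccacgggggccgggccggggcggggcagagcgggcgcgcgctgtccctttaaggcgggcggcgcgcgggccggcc
Wnt10b: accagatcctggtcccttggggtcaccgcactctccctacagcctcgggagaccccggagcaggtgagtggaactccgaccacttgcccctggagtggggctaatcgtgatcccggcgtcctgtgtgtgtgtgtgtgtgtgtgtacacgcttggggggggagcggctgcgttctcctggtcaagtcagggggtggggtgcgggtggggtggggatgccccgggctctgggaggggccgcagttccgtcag
Fzd7: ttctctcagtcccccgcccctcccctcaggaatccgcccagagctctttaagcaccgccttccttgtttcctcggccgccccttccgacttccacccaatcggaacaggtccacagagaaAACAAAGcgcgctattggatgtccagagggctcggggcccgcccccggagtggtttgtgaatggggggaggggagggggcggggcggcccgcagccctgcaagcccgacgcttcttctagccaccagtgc
Lgr4: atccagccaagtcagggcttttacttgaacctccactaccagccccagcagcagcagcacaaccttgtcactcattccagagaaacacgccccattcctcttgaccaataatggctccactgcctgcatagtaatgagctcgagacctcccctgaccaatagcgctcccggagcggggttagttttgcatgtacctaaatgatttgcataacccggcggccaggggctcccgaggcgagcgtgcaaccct
The Wnt5b window held an AP-1 match (TGAGTCA) whose first base lies 191 bases before the start, and the Wnt11 window held a TCF/LEF match (ATCAAAG) 51 bases before the start, as did the Fzd7 window (AACAAAG) 130 bases before it. The windows of Sfrp2, Fzd1, Axin2, Wnt10b and Lgr4, and that of Tcf7 not printed here, held none of these letters, which says only that they are not in these windows.

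RefSeq promoter entries were found for 37 of the 51 Wnt genes and for 25 of the 36 tested, which had 32 windows. An AP-1 match was present in 1 of the 32 windows, against 4.46% of all 32851 promoters and 3.31% of the 13039 windows of tested protein-coding genes. A TCF/LEF match was present in 4 of the 32 (12.5%), against 8.06% of all promoters and 5.65% of those of tested protein-coding genes; besides Wnt11 they belonged to Fzd7, to Tcf7l2 and to a second start of Wnt5b. No window held the cAMP response element, which was in 1.55% of all promoters and 2.56% of those of tested protein-coding genes. The 32 windows had a median GC content of 66.0%, against 59.6% in the windows of tested protein-coding genes. A match is a description of letters and not evidence of a bound factor.

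Among the Wnt ligands, 16 were listed and 11 were tested, and 4 fell, 1 rose and 6 did not pass. Wnt4 (chr4:137277489-137299726, plus strand), a ligand that promotes ovarian development and is needed for kidney tubules, gave 189, 196 and 153 normalized counts in the Pa1F/F libraries and 486, 505 and 990.0 in the Amh-pa1-/- libraries. All 3 knockout libraries lay above all 3 controls, and replicate 3 lay far above the other 2. The mean was 179 ± 22.9 (SD, n = 3) in control and 660.3 ± 286 in knockout cells, a 3.68-fold rise (log2 fold change 1.88, SE 0.30, adjusted p = 0.00393). Its log2 fold change lay between 1.47 (without knockout replicate 3) and 2.06 when each library was left out in turn, and it stayed past both thresholds each time.

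Wnt5a (chr14:28504750-28527448, plus strand), the main ligand of signalling without β-catenin, gave 1233, 1100 and 1282 normalized counts in control and 605, 662 and 639 in knockout cells. These groups were tight and well apart, with means of 1205 ± 94.1 and 636 ± 28.8 (SD, n = 3). The log2 fold change of -0.92 (SE 0.08, adjusted p = 0.000445) is below the fold threshold, and the adjusted p stayed under 0.05 in all 14 alternative analyses. Wnt11 (chr7:98835112-98855195, plus strand), which also acts in cell movement, fell from 175, 199 and 150.0 to 112, 114 and 94.2 normalized counts. Its groups did not overlap (log2 fold change -0.71, SE 0.15, adjusted p = 0.0120), and the adjusted p was 0.0822 with the closest libraries of each group summed.

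Wnt10b and Wnt5b were lower and less certain. Wnt10b (chr15:98771753-98778150, minus strand), a β-catenin ligand studied in fat and bone, gave 124, 162 and 104 normalized counts in control and 55.6, 71.0 and 21.0 in knockout libraries. The groups did not overlap, and the knockout value was lowest in replicate 3 (log2 fold change -1.41, SE 0.41, adjusted p = 0.0354). The adjusted p rose to 0.0876 without control replicate 1, 0.0939 without control replicate 2, 0.0646 without control replicate 3 and 0.0808 without knockout replicate 1, and to 0.125 with the closest libraries summed. Without knockout replicate 3 the log2 fold change of Wnt10b was -1.04 (adjusted p = 0.0110). Wnt5b (chr6:119432531-119544347, minus strand), a close relative of Wnt5a, gave 47.1, 49.4 and 45.1 against 10.7, 14.7 and 31.1 normalized counts. Here the knockout value was highest in replicate 3, and the groups still did not overlap (log2 fold change -1.32, SE 0.38, adjusted p = 0.0338). Its adjusted p rose to between 0.0794 and 0.109 when any library other than knockout replicate 3 was left out, and without that library the log2 fold change was -1.89 (adjusted p = 0.00131). With the closest libraries summed the adjusted p of Wnt5b was 0.195. Wnt5b overlaps Fbxl14 on the opposite strand over 2963 bases, and no source used here names a strand setting for the counting. Fbxl14 had 408, 402 and 370 counts in control and 631, 518 and 624 in knockout libraries, higher where Wnt5b was lower.

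The 6 tested ligands that did not pass had adjusted p values of 0.477 to 0.951. Wnt6, the ligand with the highest level per length, gave 570.0, 617 and 541 normalized counts in control and 475, 451 and 778 in knockout libraries, so replicate 3 lay above and the other 2 below every control. Its log2 fold change was -0.02 with all libraries and -0.31 (adjusted p = 0.0228) without knockout replicate 3. Wnt9a showed the opposite arrangement, with 69.8, 51.3 and 97.5 against 119, 127 and 45.1 normalized counts. The log2 fold change of Wnt9a was 0.41 (adjusted p = 0.477), and 0.76 (adjusted p = 0.0499) without knockout replicate 3. Wnt7b had 22.3 to 31.5 normalized counts in control and 35.1, 32.7 and 6.01 in knockout libraries (log2 fold change -0.20, and 0.27 without knockout replicate 3, neither past the test). Wnt2, Wnt2b and Wnt10a stayed at or below 30.02 normalized counts in every library, with standard errors of 0.41 to 0.67 on the log2 scale. Their log2 fold changes were 0.22, -0.17 and 0.25, and 0.44, -0.00207 and 0.0186 without knockout replicate 3, none past the test. Wnt1, Wnt3a, Wnt8a, Wnt8b and Wnt16 had at most 4 counts in any library and were not tested.

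Summed over the 16 ligands, the level was 33.3, 34.1 and 32.8 CPM per kilobase in control and 28.5, 29.3 and 40.8 in knockout libraries, so the groups overlapped in their total. What differed was the makeup of that total. Wnt6 held 41.7% ± 1.94 (SD, n = 3) of it in control and 41.2% ± 4.49 in knockout cells. The share of Wnt5a was 30.6% ± 2.96 in control and 16.8% ± 3.12 in knockout cells, and that of Wnt4 was 7.24% ± 0.81 and 26.3% ± 5.55. Per length, Wnt4 stood at 0.245, 0.283 and 0.190 of the Wnt5a level in the control libraries and at 1.28, 1.21 and 2.47 of it in the knockout libraries, so the order of these 2 ligands differed between the groups in every library.

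**Figure D2:**
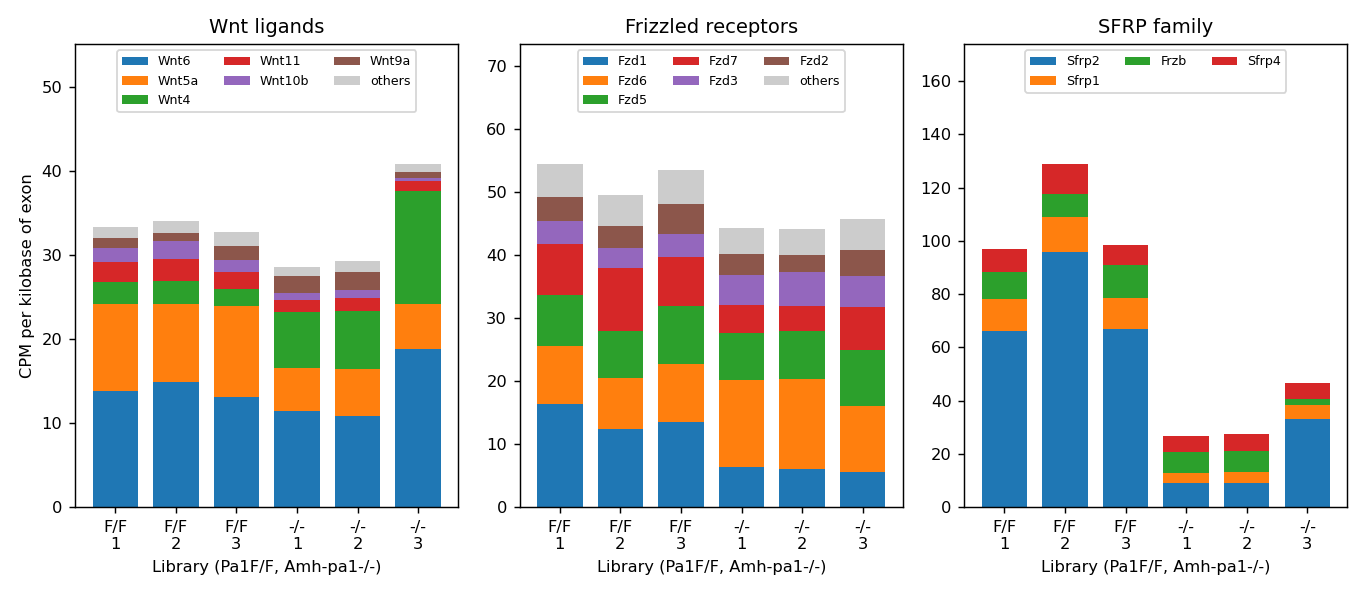
Level of each gene in CPM per kilobase of exon, stacked within each of the 6 libraries, for the Wnt ligands, the Frizzled receptors and the SFRP family (each panel has its own scale). The Fzd7 layer is too thin, since its exon length exceeds the gene as counted. The heights of the ligand bars overlap between the groups (32.8 to 34.1 against 28.5 to 40.8). The Wnt4 layer is thicker and the Wnt5a layer thinner in the knockout bars, and the SFRP bars drop from between 96.8 and 129 to between 26.9 and 46.5.

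All 10 Frizzled genes were listed and 9 were tested, since Fzd10 had at most 1 count. Of the 9, 3 fell, 2 rose and 4 did not pass. Fzd1 (chr5:4753839-4758035, minus strand), a receptor for several β-catenin ligands, gave 1008, 771 and 833 normalized counts in control and 392, 379 and 346 in knockout libraries. The groups were far apart with little spread within the knockout group, and the fall was 2.34-fold (log2 fold change -1.23, SE 0.12, adjusted p = 0.000647). Fzd9 (chr5:135248938-135251230, minus strand), a receptor studied in bone and brain, gave 65.2, 54.2 and 59.8 against 13.7, 24.8 and 11.0 normalized counts. That was a 3.64-fold fall between groups that did not overlap (log2 fold change -1.86, SE 0.31, adjusted p = 0.00472). Both Fzd1 and Fzd9 stayed past both thresholds whichever library was left out (Fzd9 was at -1.64 without knockout replicate 3). Fzd7, a close relative of Fzd1 and Fzd2, gave 701, 858 and 675 against 379, 338 and 580.1 normalized counts. Replicate 3 was nearest to the controls (log2 fold change -0.78, SE 0.21, adjusted p = 0.0276). Without that library the log2 fold change of Fzd7 was -1.05, and without any of the other 5 its adjusted p was between 0.0581 and 0.0903. It was 0.162 with the closest libraries summed.

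Fzd3 and Fzd6, relatives of each other that are best known from planar cell polarity, both rose. Fzd3 (chr14:65192449-65262463, minus strand) gave 700, 616 and 720 normalized counts in control and 939, 1038 and 954 in knockout libraries. Every knockout library exceeded every control (log2 fold change 0.53, SE 0.08, adjusted p = 0.00390), and the adjusted p was 0.0532 with the closest libraries of each group summed. Fzd6 (chr15:39006280-39038186, plus strand) gave 939, 804 and 931 against 1398, 1434 and 1054 normalized counts. Here replicate 3 lay closest to the controls without reaching them (log2 fold change 0.54, SE 0.13, adjusted p = 0.0190), and the adjusted p was between 0.0518 and 0.0655 when any library but knockout replicate 3 was left out and 0.133 with the closest libraries summed. Fzd4, the receptor for norrin, had 71.6, 64.9 and 92.3 against 95.7, 100.3 and 112 normalized counts, which did not overlap and did not pass (log2 fold change 0.43, SE 0.18, adjusted p = 0.103). Fzd2, Fzd5 and Fzd8 had log2 fold changes of -0.27, -0.04 and 0.13, with adjusted p values of 0.307 to 0.811 and overlapping groups.

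The Frizzled total was 54.4, 49.6 and 53.5 CPM per kilobase in control and 44.3, 44.2 and 45.7 in knockout libraries. Fzd1 led it in control cells with 26.8% ± 2.76 (SD, n = 3), followed by Fzd6 with 16.8% ± 0.65, Fzd7 with 16.5% ± 3.05 and Fzd5 with 15.7% ± 1.27, whose ranges of mean ± SD overlapped. In knockout cells Fzd6 led with 28.8% ± 5.14, Fzd5 followed with 18.0% ± 1.47, and Fzd1 had 13.5% ± 1.10. The exon length used for Fzd7 (5868 bases) exceeds the gene as counted (chr1:59482424-59486955), and that of Fzd8 (5974 bases) likewise exceeds its counted span. Levels and shares of Fzd7 and Fzd8 are therefore too low, and the shares of the other Frizzled genes too high. The place of Fzd7 beside Fzd6 and Fzd5 in control cells is thus not settled.

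R-spondins amplify Wnt signalling by binding LGR receptors and drawing ZNRF3 and RNF43, the ubiquitin ligases that remove Frizzled, from the cell surface. The R-spondins themselves were barely detected. Rspo1 had 3, 1 and 5 counts in control and 3, 3 and 14 in knockout libraries, Rspo3 had at most 10 and Rspo4 at most 4. A count of 0 allows up to 3 counts in a library, so differences at this level were not detectable at this depth. Lgr5 had at most 4 counts. Lgr4 (chr2:109917647-110014257, plus strand) had by far the highest level of the LGR receptors, with 1296, 1264 and 1247 normalized counts in control and 1615, 1719 and 2661 in knockout libraries. The knockout libraries all lay above the controls, replicate 3 by far the most (log2 fold change 0.66, SE 0.18, adjusted p = 0.0320). Without knockout replicate 3 the log2 fold change was 0.40 (adjusted p = 0.00118). Without control replicate 1, 2 or 3 the adjusted p of Lgr4 was 0.0868, 0.0791 and 0.0972, and with the closest libraries summed it was 0.109. Lgr6 had 31.0 to 39.9 normalized counts in control and 30.3 to 57.4 in knockout libraries and did not pass (adjusted p = 0.664).

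The secreted inhibitors bind Wnt ligands or their co-receptors outside the cell. Of 9 listed, 5 were tested, and 3 of these (60.0%, against 17.1% of all genes tested) fell at an adjusted p under 0.05. Frzb and Dkk3 did not pass, and the log2 fold change of Dkk3 was only -0.04. The members of the SFRP family carry a Frizzled-like domain that binds ligand. Sfrp2, which had the highest level per length of all Wnt genes in control cells (chr3:83766321-83774316, plus strand), gave 2234, 3242 and 2261 normalized counts in control and 304, 311 and 1125 in knockout libraries. Replicate 3 of the knockout group was well above the other 2 and still below every control. The means were 2579 ± 574 and 580 ± 472 (SD, n = 3), a 4.44-fold fall (log2 fold change -2.15, SE 0.52, adjusted p = 0.0194). The log2 fold change was -3.07 without knockout replicate 3, and the adjusted p was 0.0508 without control replicate 2, 0.0544 without knockout replicate 1, 0.0564 without knockout replicate 2 and 0.128 with the closest libraries of each group summed.

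Sfrp1 (chr8:23411502-23449632, plus strand) gave 855, 936 and 839 normalized counts in control and 270.4, 281 and 365 in knockout libraries. The groups lay far apart, and the fall passed both thresholds whichever library was left out. Its log2 fold change of -1.52 (SE 0.13, adjusted p = 0.000419) lay between -1.67 and -1.44 when each library was left out. It was also the only Wnt gene past a test of whether the log2 fold change exceeds 1 (adjusted p = 0.0230), where Wnt4 had an adjusted p of 0.0743. Sfrp4 gave 515, 680 and 447 normalized counts in control and 365, 403 and 357 in knockout libraries. This smaller fall (log2 fold change -0.55, SE 0.16, adjusted p = 0.0361) had an adjusted p between 0.0501 and 0.103 without control replicate 1 or 2 or any 1 of the knockout libraries, and 0.112 with the closest libraries summed. Frzb, the fourth measured member of the family, had 549, 463 and 657 against 430, 423 and 122 normalized counts. The groups did not overlap, and replicate 3 lay far below the other knockout libraries. Frzb did not pass with all libraries (log2 fold change -0.78, SE 0.43, adjusted p = 0.204) or without knockout replicate 3 (-0.38, adjusted p = 0.0713).

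The SFRP family summed to 96.8, 129 and 98.4 CPM per kilobase in control and 26.9, 27.7 and 46.5 in knockout libraries, with no overlap. Sfrp2 made up 68.2%, 74.4% and 68.0% of it in control libraries and 33.4%, 33.2% and 71.5% in knockout libraries, so for Sfrp2 the share in replicate 3 lay within the control range. The shares of Sfrp4 (12.5%, against 7.39% to 8.65% in control) and Frzb (4.96%, against 6.78% to 12.6%) in that library did not. Dkk3 had 173 to 206 normalized counts in control and 137 to 223 in knockout libraries (adjusted p = 0.880). Wif1, which binds Wnt ligands directly, had 10, 12 and 11 counts against 4, 8 and 9 and was not tested. Dkk1 and Dkk2, which block the LRP co-receptors, and Sfrp5 had at most 2 counts.

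**Figure D3:**
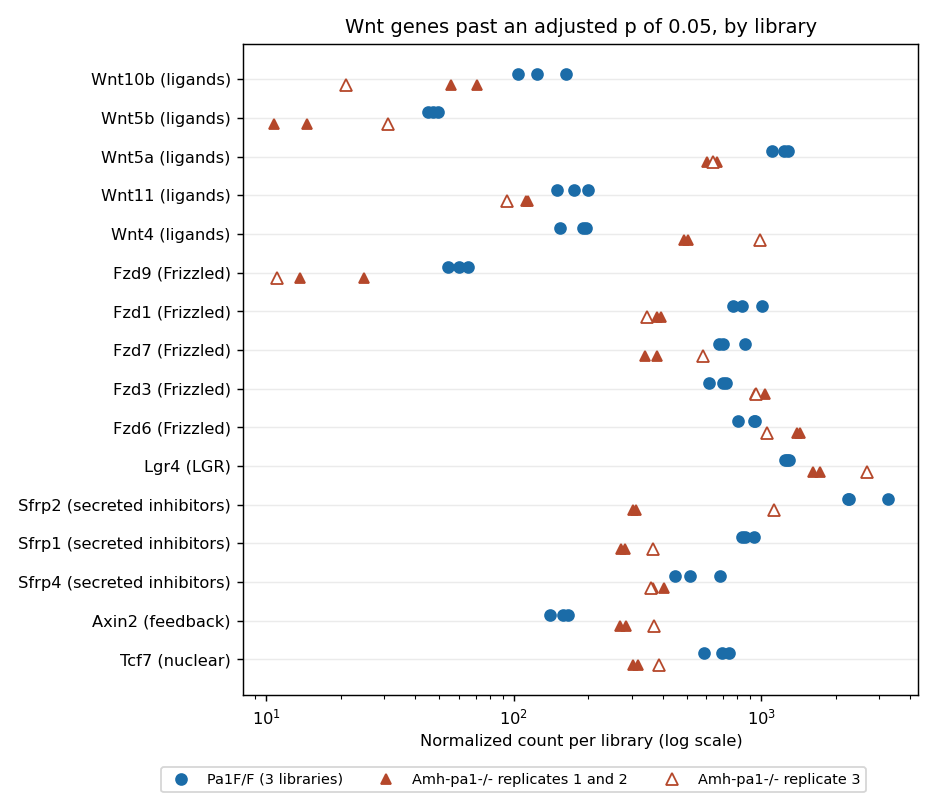
Normalized count per library, on a log scale, of the 16 Wnt genes with an adjusted p under 0.05, grouped by role, with circles for the 3 Pa1F/F libraries, filled triangles for Amh-pa1-/- replicates 1 and 2 and an open triangle for replicate 3. The groups do not overlap for any of these 16 genes, which were chosen by that adjusted p, nor for 52.4% of all genes tested. The open triangle lies far from the filled ones for Sfrp2 (1125 against 304 and 311) and Wnt4 (990.0 against 486 and 505).

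Among the 5 inhibitors inside the cell or in its membrane, all tested, 1 rose and 4 did not pass. Axin2 (chr11:108920349-108950783, plus strand), a scaffold of the complex that degrades β-catenin and a widely used reporter of β-catenin activity, gave 166, 139 and 158 normalized counts in control and 268, 285 and 368 in knockout libraries. The groups did not overlap, and the rise was 1.99-fold (log2 fold change 0.99, SE 0.15, adjusted p = 0.00335). Its adjusted p stayed under 0.05 in all 14 alternatives, while its log2 fold change lay on either side of 1. Nkd2 had 99.7, 61.0 and 116 against 58.6, 46.2 and 63.1 normalized counts (log2 fold change -0.72, SE 0.27, adjusted p = 0.0802, and -0.94 with an adjusted p of 0.0201 without control replicate 2). Nkd1, Rnf43 and Znrf3 had log2 fold changes of 0.40, -0.59 and -0.13, with adjusted p values of 0.170 to 0.427 and overlapping groups, and without knockout replicate 3 the value of Nkd1 was 0.0458.

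Ctnnb1, which encodes β-catenin, had the second highest level per length of the Wnt genes in control cells and the highest in knockout cells, at 65.3 ± 4.03 and 61.8 ± 3.77 CPM per kilobase (SD, n = 3). Its normalized counts were 7812, 8332 and 7365 against 7706, 7648 and 6894, and they overlapped (log2 fold change -0.08, SE 0.08, adjusted p = 0.450). Tcf7 (chr11:52252371-52283014, minus strand), which encodes the nuclear partner TCF1, gave 696, 741 and 587 against 316, 304 and 387 normalized counts. The groups lay far apart (log2 fold change -1.01, SE 0.13, adjusted p = 0.00189). Its log2 fold change fell short of 1 in size without control replicate 1 (-0.98) or 2 (-0.94) or knockout replicate 1 (-0.96) or 2 (-0.92), though the adjusted p stayed under 0.05. Tcf7l2 had 282 to 307 against 275 to 344 normalized counts (adjusted p = 0.687), and Tcf7l1 had 55.2 to 76.1 against 43.0, 43.9 and 97.2 (log2 fold change -0.07, adjusted p = 0.897, and -0.57 with an adjusted p of 0.0689 without knockout replicate 3). Lef1 was barely detected, with 16, 9 and 8 counts in control and 7, 12 and 7 in knockout libraries. Per length, Tcf7 was therefore the leading TCF/LEF gene in both groups, at 11.9 ± 1.40 and 5.94 ± 0.79 CPM per kilobase, with Tcf7l2 next at 2.21 ± 0.10 and 2.31 ± 0.27.

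Ranked by CPM per kilobase, the order of the 51 Wnt genes differed between the groups. Sfrp2, Ctnnb1, Fzd1, Wnt6 and Sfrp1 led in control cells, at 76.3 ± 17.0, 65.3 ± 4.03, 14.1 ± 1.99, 13.9 ± 0.92 and 12.4 ± 0.73 (SD, n = 3). The ranges of mean ± SD overlapped for Sfrp2 and Ctnnb1, and among Fzd1, Wnt6 and Sfrp1. In knockout cells Ctnnb1 led, followed by Lgr4 at 18.3 ± 5.27, Sfrp2 at 17.2 ± 14.0, Wnt6 at 13.7 ± 4.40 and Fzd6 at 12.8 ± 2.08, and the ranges of the last 4 overlapped. Lgr4, Sfrp2, Wnt6 and Wnt4 were all highest in knockout replicate 3 (for Sfrp2, 1125 against 304 and 311 normalized counts). Their knockout ranks lean on that library. Wnt4 moved from rank 17 to rank 6, Sfrp1 from rank 5 to rank 15 and Fzd1 from rank 3 to rank 10. The levels of Fzd7 and Fzd8 are too low for the reason given above, which can shift neighbouring ranks.

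The rest of the pathway was taken from lists of 69 further genes, of which 67 were listed and 62 tested. Of these, 10 fell and 10 rose at an adjusted p under 0.05, and 3 and 4 of them also passed the fold threshold, with a median log2 fold change of -0.01. Set beside the shares of all genes tested, these counts (20 of 62, and 7 of 62 past both thresholds) are near the background. The count of genes that fell was 5 without control replicate 1, control replicate 3 or knockout replicate 1, 6 without knockout replicate 2, 18 without knockout replicate 3 and 1 with the closest libraries summed. Among receptors that work without β-catenin, Ror1, a receptor for WNT5A, gave 248, 202 and 247 normalized counts in control and 85.9, 78.9 and 63.1 in knockout libraries. This fall (log2 fold change -1.61, SE 0.16, adjusted p = 0.000731) went in the same direction as that of Wnt5a. Its relative Ror2 had 112, 118 and 107 against 31.2, 31.5 and 115, so replicate 3 alone was at the control level, and it did not pass (log2 fold change -0.92, adjusted p = 0.195). Ryk rose (log2 fold change 0.52, SE 0.08, adjusted p = 0.00452), while the co-receptors Lrp5 and Lrp6 had log2 fold changes of 0.06 and 0.04 (adjusted p = 0.714 and 0.825).

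Outside the cell and in its membrane, Tpbg and Apcdd1, both membrane proteins known to restrain Wnt/β-catenin signalling, both rose. Tpbg gave 75.2, 77.5 and 71.3 against 272, 247 and 350 normalized counts (log2 fold change 1.95, SE 0.16, adjusted p = 0.000364). Apcdd1 gave 48.0, 47.4 and 57.7 against 379, 339 and 247 (log2 fold change 2.65, SE 0.20, adjusted p = 0.000253). In both genes the groups lay several-fold apart. Ndp, which encodes norrin, a ligand of FZD4 that is no Wnt, rose with 21.8, 16.5 and 24.1 against 62.5, 64.2 and 28.1 (log2 fold change 1.31, SE 0.37, adjusted p = 0.0315). Trabd2b, a membrane protease that clips Wnt ligands, fell with 261, 258 and 243 against 72.2, 86.7 and 148 (log2 fold change -1.31, SE 0.26, adjusted p = 0.00878).

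Of the genes needed to release Wnt ligands, Porcn, which attaches their lipid, fell from 125, 106 and 138 to 69.3, 59.7 and 71.1 normalized counts (log2 fold change -0.88, SE 0.16, adjusted p = 0.00656). Wls, which carries them to the surface, went the other way, from 6119, 6419 and 6386 to 8468, 8533 and 7881 (log2 fold change 0.39, SE 0.06, adjusted p = 0.00340). Of the 12 planar cell polarity genes, 3 fell and 2 rose, and the cadherins Celsr2 (log2 fold change 1.13, SE 0.24, adjusted p = 0.0110) and Celsr3 (log2 fold change -1.80, SE 0.35, adjusted p = 0.00858) passed both thresholds in opposite directions. In the transduction and destruction complex, 4 of 21 fell and 3 rose, all by less than the fold threshold. The 11 nuclear cofactors had log2 fold changes of -0.67 to 0.30, with adjusted p values of 0.0665 to 0.994. Porcn, Wls, Ryk, Lrp5, Lrp6, Ror2 and, below, Bambi and Myc were named after their values were seen.

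A list of 20 genes widely used as β-catenin targets had 16 listed and 11 tested, and they did not move one way. Axin2 and Apcdd1 rose, while Tcf7, Ccnd1 and Bambi fell. Ccnd1, which encodes cyclin D1, gave 812, 573 and 875 normalized counts in control and 230.4, 231 and 125 in knockout libraries, with no overlap (log2 fold change -1.95, SE 0.27, adjusted p = 0.00237). Of these 20 genes, 7 are also among the Wnt genes chosen by the rule, so the list is not separate from them. Myc did not pass (log2 fold change 0.24, adjusted p = 0.0916).

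The labelled cell type was checked with markers, and other cells of the testis were looked for with lists of their own. Sertoli markers were abundant in both groups, with Sox9 at 3172 to 4983 and Wt1 at 4493 to 6084 normalized counts in every library, and Sox9 did not pass (adjusted p = 0.613). Amh itself, whose promoter drives the Cre, had 186, 254 and 179 against 43.9, 48.4 and 365 normalized counts, and Trf and Rhox5 were at or below 15.5. Of 18 tested Sertoli markers, 5 fell and 4 rose, and the list summed to 21342 to 22668 CPM in control and 14787, 15033 and 18900 in knockout libraries, with a list median log2 fold change of -0.08. The largest part of that sum was Clu, an abundant secreted chaperone, with 192489 to 194105 normalized counts in control and 105693, 107472 and 146325 in knockout libraries (log2 fold change -0.69, adjusted p = 0.0220). Inhbb, Inha and Gata4 also fell (log2 fold changes of -1.23 for Inha and -0.88 for Gata4) and Cst9 rose (2.85). The Leydig list summed to 1030 to 1103 CPM in control and 308, 317 and 471 in knockout libraries, and 4 of its 5 tested genes fell. Cyp11a1, the first enzyme of steroid synthesis, had 4250, 4212 and 4696 against 352, 364 and 377 normalized counts (log2 fold change -3.59, adjusted p = 5.15e-06), and Star, which brings cholesterol to it, had 8098, 7298 and 8336 against 2019.6, 2101 and 3762 (log2 fold change -1.59, adjusted p = 0.00337). The defining Leydig genes Cyp17a1 and Insl3 were at or below 2.91 normalized counts in every library, and Lhcgr at or below 13.6.

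Lists of other cells were summed in the same way. In the stromal, myoid and endothelial sums replicate 3 stood apart from knockout replicates 1 and 2. The stromal fibroblast list summed to 3623 to 4510 CPM in control and 2204, 2190 and 4108 in knockout libraries, with 3 of 7 tested genes lower. The sum in replicate 3, most of it collagen counts, lay within the control range, while Pdgfra was at 542 there against 804 to 966 normalized counts in control, Dpt at 115 against 146 to 181 and Dcn at 1867 against 1033 to 1591. The peritubular myoid list summed to 226 to 294 CPM in control and 875, 845 and 1317 in knockout libraries, and 1 of 6 tested genes, Acta2, rose. Without Acta2 the list summed to 53.8 to 80.0 CPM in control and 37.9, 36.7 and 271 in knockout libraries, lower in replicates 1 and 2 and higher in replicate 3. In that list the smooth muscle gene Myh11 had 649, 481 and 580.0 against 216, 165 and 1605 normalized counts. Macrophage genes fell for 7 of the 9 tested (log2 fold changes of -3.38 to -1.65), where 17.1% of all genes tested fell. The list summed to 128 to 140 against 91.1, 94.3 and 76.3 CPM. Most of the knockout sum was Mrc1, which did not fall (986, 1022.5 and 945 against 1180, 1215.5 and 932 normalized counts, adjusted p = 0.25). Endothelial genes summed to 116 to 122 against 63.9, 64.5 and 101 CPM, with 2 of 4 tested genes lower and 1 higher. Most of that was Cdh5, with 1592, 1599 and 1565 against 811, 829 and 967 normalized counts. Kdr, which did not pass (adjusted p = 0.172), had 62.5, 99.7 and 69.2 against 80.0, 74.35 and 485. Whether any of these cells carried the changes in Sfrp2, Wnt4, Wnt5a or the other Wnt genes was not tested.

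Mesothelial markers summed to 362 to 380 CPM in control and 463, 471 and 364 in knockout libraries, and 4 of 8 rose. Most of that sum is Wt1, also a Sertoli marker, and without it the list summed to 23.3 to 29.5 CPM in control and 49.5, 58.3 and 58.0 in knockout libraries. Among them Upk3b had 6.34, 4.84 and 14.7 against 230.4, 242 and 339 normalized counts, and Krt19 had at most 2.72 against 51.7 to 59.7, while Msln and Krt8 had log2 fold changes of -0.53 and -0.77 and did not pass (adjusted p = 0.261 and 0.0965). Rete testis and efferent duct genes summed to 17.2 to 19.7 against 23.8, 27.4 and 25.0 CPM, and 2 of 3 tested genes rose, both of which are also in the mesothelial list. Proliferation genes rose for 6 of 8, with sums of 301 to 432 against 722, 732 and 1085 CPM. Spermatogonial genes summed to 193 to 222 against 189, 200 and 104 CPM, with 3 of 4 tested genes lower. Nearly all of that sum was Uchl1, which did not pass (2775 to 3145 against 2751, 2907 and 1457 normalized counts, adjusted p = 0.300), while the 3 that fell, Ddx4, Kit and Gfra1, were at or below 48.2 normalized counts, and Dazl, not tested, had 45.1 in knockout replicate 3 against 6.76 to 16.8 in the others. The spermatocyte list stayed at or below 7.97 CPM and the spermatid list at or below 7.70 CPM. The part of these lists in the Wnt results was not tested either.

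**Figure D4:**
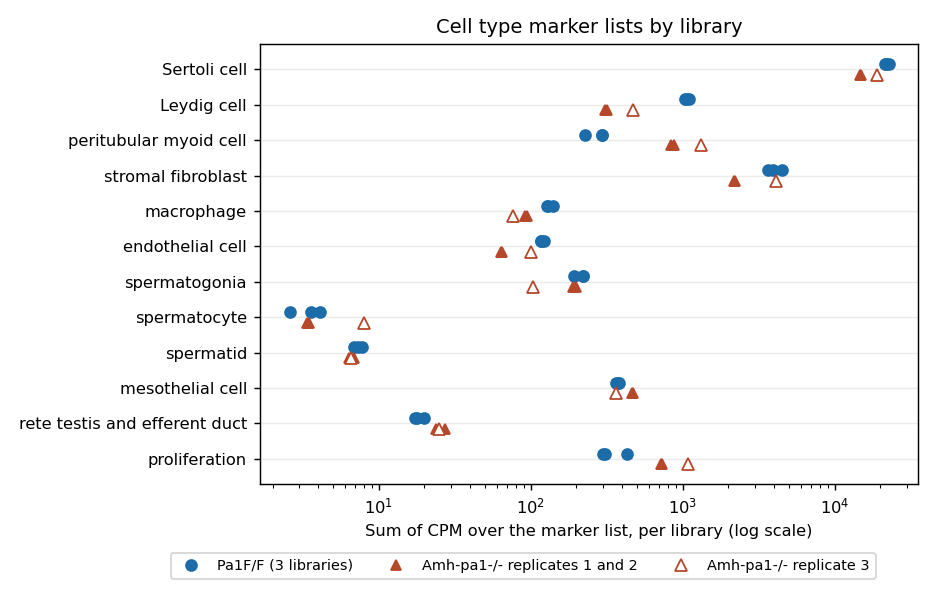
Sum of CPM over each marker list, per library on a log scale, with circles for Pa1F/F, filled triangles for Amh-pa1-/- replicates 1 and 2 and an open triangle for replicate 3. The Sertoli list sums highest in every library. In all knockout libraries the Sertoli, Leydig, macrophage, endothelial and, narrowly, spermatid lists are lower, and the proliferation, rete testis and myoid lists higher. The myoid sum without Acta2 is 37.9, 36.7 and 271 in knockout libraries. The open triangle of the stromal list lies at 4108 CPM, within the control range.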

How the data were processed

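Sertoli cell RNA from 3 Pa1F/F and 3 Amh-pa1-/- samples was sequenced, and groups and replicate numbers were taken from the labels. Per the submitters' processing notes the authors used HISAT2 2.1.0, HTSeq 0.6.0 and GRCm38, and the values used here are the raw counts per gene they deposited, without normalization. The table also holds the authors' own comparison (means, fold changes, p-values), which was not used. The methods of the study name DEGseq, and a count test that uses the replicates was run in its place.

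Total counts per library were 16231443, 15344463 and 14051353 in Pa1F/F and 15247587, 13203757 and 14299871 in Amh-pa1-/- samples. Reads carry no molecular identifiers, so a floor of 3 counts covers counting error only. Genes were filtered with edgeR's filterByExpr (minimum count 10, minimum total 15), normalized with TMM and tested with edgeR's quasi-likelihood F-test (edgeR 4.0.16, limma 3.58.1, DESeq2 1.42.0, R 4.3.3, Python 3.11.15) with Benjamini-Hochberg adjustment over 14919 genes. The thresholds were an adjusted p under 0.05 and a log2 fold change of 1 in either direction. The SE is the absolute log2 fold change divided by the square root of F. Exon lengths came from GENCODE vM39, matched by gene identifier for all 51 genes, and promoters from RefSeq. For Fzd7 and Fzd8 that length exceeds the span of the gene as counted. No source used here gives the strand setting of the counting. The steps were tested on simulated data.

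Tested Wnt genes with an adjusted p under 0.05 were named with their values per library, and other pathway and target genes when past both thresholds. Marker genes and others outside this rule were named after their values were seen. The Wnt genes, lists and tests were chosen with earlier results of these data known. Alternatives were other normalizations, filters and tests, leaving out each library, the replicate number as a block, and the closest pair of libraries of each group summed.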

Additional observations from a re-analysis of the deposited data

How the results depend on the processing

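Fzd1, Fzd9, Sfrp1 and Wnt4 passed both thresholds in all 15 analyses other than the test of whether the fold exceeds the threshold, and DESeq2's Wald test, DESeq2 size factors, limma-voom and a filter of 10 counts in every library called the same 8 Wnt genes. The main counts were 7 lower and 1 higher past both thresholds, and 11 lower and 5 higher by adjusted p alone. Leaving out each library gave 3 to 8 lower and 1 to 2 higher past both thresholds, 6 to 11 lower and 3 to 6 higher by adjusted p alone, and 5 to 18 lower and 7 to 14 higher among the other pathway genes (10 lower and 10 higher with all libraries). The 3 were without control replicate 2 or knockout replicate 1, and without control replicate 1 or knockout replicate 2 there were 4. The 6 lower by adjusted p alone were without knockout replicate 1, and the 18 without knockout replicate 3. Library size alone as scaling, or a filter of 1 count in total, gave 2 higher, Axin2 being added, and 6 lower, Tcf7 being lost.

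Control replicates 1 and 3 differed beyond counting noise by a coefficient of variation of 3.59%, against 18.4% and 18.5% for the other control pairs, and knockout replicates 1 and 2 by 2.41%, against 22.0% and 22.2%. Whether a pair shares a source was not tested. With each pair summed, 3 were lower and 2 higher past both thresholds, 5 lower and 2 higher by adjusted p alone, and 1 lower and 3 higher among the other pathway genes. These fits had 4 samples. Asking whether the log2 fold change exceeds 1 left 1 lower (Sfrp1) and 0 higher, with 4 lower and 1 higher at an unadjusted p under 0.05.

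Same-numbered samples did not deviate together (r = 0.108, -0.164 and -0.179 across genes), so these values show no pairing by number. Deviations from the mean of so small a group cannot exclude a pairing. With the replicate block, 6 were lower and 1 higher past both thresholds, 9 lower and 4 higher by adjusted p alone, and 6 lower and 8 higher among the other pathway genes. The block moved the adjusted p of Wnt5b to 0.0567, of Fzd7 to 0.0568 and of Lgr4 to 0.0523.

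For the 16 Wnt genes with an adjusted p under 0.05, 182 log2 fold changes under the alternatives kept their direction and side of the threshold and 42 lost the threshold. Among the other 20 tested Wnt genes, Wnt6, Wnt9a and Nkd2 gained it in 1 alternative each, and 10 changed sign in at least 1, none of them past the threshold with the changed sign. Leaving out each library in turn gave log2 fold changes from -0.12 to 0.0448 for Fzd5, -0.0191 to 0.25 for Fzd8, -0.12 to 0.36 for Lgr6, -0.27 to 0.88 for Wnt2, -0.50 to 0.11 for Wnt2b, -0.31 to 0.14 for Wnt6, -0.56 to 0.27 for Wnt7b, -0.57 to 0.14 for Tcf7l1, -0.0298 to 0.15 for Tcf7l2 and -0.21 to 0.14 for Dkk3. Summing the closest libraries turned Fzd5 to 0.0540, Wnt6 to 0.0969, Tcf7l1 to 0.16 and Dkk3 to 0.0215, and a filter of 1 count in total turned Wnt6 to 0.00520.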
